A study of Homo sapiens with 12 samples.

Results

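The 12 elements described here carry 1 substitution in the Pumilio response element, at position 2 counted from 1 at the 5′ end. The consensus is T at position 1, G at 2, T at 3, A at 4, any base at 5, A at 6, T at 7 and A at 8. A member keeps every fixed base except the G at position 2, so the 3 possible new bases and the 4 bases at position 5 give 12 elements, all of them listed in all 12 libraries. They were chosen by sequence alone from 1005 8-base elements listed in every library. Position 2 lies inside TGT, the invariant start of the element, and 0 of the 12 members contain TGT.

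Pumilio proteins are repressors of mRNA that bind elements of this kind, mostly in 3′ UTRs. Their RNA-binding domain is built of repeats, each of which contacts a base of the element, and the G near its 5′ end is among the most conserved bases of known Pumilio sites. Position 5 is the variable base of the consensus. In the assay used here, RBPscan, the RNA-binding protein is fused to the catalytic domain of ADAR, an enzyme that deaminates adenosine in RNA. The product, inosine, pairs like guanosine, so contact between the fusion and an mRNA is recorded as A-to-G changes in a hairpin beside the element.

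All libraries came from HEK293T, a line of human embryonic kidney cells with the genotype given as WT, and all cells held the same library of recorder mRNAs. The protein in 3 of the groups was hsPUM2-ADARcdMUT, human PUM2 fused to a mutated ADAR catalytic domain, either non-induced, at 25 ng or at 250 ng. The fourth group held ADARcdMUT, the domain without PUM2, at 1000 ng. Each group had 3 libraries, called biological replicates by the submitters. The sample titles give the amounts without the substance, and the series states that doxycycline switched on the fusion. The sources used here do not say whether the 1000 ng is an amount of the same substance, so ADARcdMUT differs from the fusion groups in the protein and in the amount. The extraction text of the labels names embryos of another organism, while the source and the cell line give HEK293T. Libraries held 11235321 to 25127959 reads, and a member had 3669 to 41226 reads in a library.

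The elements are shown with their sequences because the single base in capitals, which replaces the consensus G at position 2, is all that separates a member from the consensus element with the same base at position 5. The substitution stands before the colon, with the base at position 5.
G2A with A at position 5: tAtaaata
G2A with C at position 5: tAtacata
G2A with G at position 5: tAtagata
G2A with T at position 5: tAtatata
G2C with A at position 5: tCtaaata
G2C with C at position 5: tCtacata
G2C with G at position 5: tCtagata
G2C with T at position 5: tCtatata
G2T with A at position 5: tTtaaata
G2T with C at position 5: tTtacata
G2T with G at position 5: tTtagata
G2T with T at position 5: tTtatata
consensus with A at position 5: tgtaaata
consensus with C at position 5: tgtacata
consensus with G at position 5: tgtagata
consensus with T at position 5: tgtatata
A new A adds an adenosine to the element, so the G2A members hold 4 or 5 adenosines and the others 3 or 4. The measured edits are counted against 7 recorder adenosines for every element. Of the 12 members, 4 are made of A and T only: tAtaaata, tAtatata, tTtaaata and tTtatata.

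Loss of the G at position 2 lowered editing under the induced fusion, and the levels differed by the base that took its place. At 250 ng the editing level, the percent of the 7 recorder adenosines edited over all reads of an element, averaged 9.57 ± 0.346% over the 4 G2A members, 8.12 ± 0.230% over the 4 G2C members and 8.50 ± 0.233% over the 4 G2T members (SD, n = 3 libraries here and below). The 4 consensus elements averaged 13.0136 ± 0.227%. The median of the 640 other elements without TGT was 7.79 ± 0.0927%. The G2A members therefore lay between the consensus and the elements without TGT, and the G2C members lay closest to the elements without TGT.

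Every member was edited at a low level without induction and in ADARcdMUT cells. The mean over the 12 members was 1.76 ± 0.0597% in non-induced libraries, 4.64 ± 0.163% at 25 ng and 8.73 ± 0.264% at 250 ng. In ADARcdMUT libraries it was 1.88 ± 0.137%. The lowest member mean among non-induced libraries was that of tCtatata, at 1.54%, and the highest that of tTtaaata, at 1.89%. Between groups, all 12 members were called higher in the log2 odds of editing at 250 ng and at 25 ng than in non-induced libraries (limma, Benjamini-Hochberg adjusted p under 0.05 over 1006 listed entries). The share of all entries called in those comparisons was 100% each, so this is a rise of the whole library. Against non-induced libraries the ratio of mean levels at 250 ng ran from 4.26 for tCtaaata to 5.69 for tCtatata among members, and from 6.58 for tgtagata to 7.68 for tgtatata among consensus elements.

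The G2A members had the highest mean level of the 3 new bases, and 3 of the 4 led the 12 members. tAtatata had 9.78, 10.3 and 10.4% of recorder adenosines edited in the 250 ng libraries, against 1.83, 1.81 and 1.77% in non-induced libraries. tAtacata had 9.68, 10.2 and 10.1% at 250 ng, against 1.88, 1.87 and 1.77% without induction. tAtaaata had 8.94, 9.37 and 10.1% at 250 ng, against 1.80, 1.81 and 1.99% without induction. These 3 had the highest means of the 12 at 250 ng. Here, as for every member, all 3 libraries at 250 ng were above all 3 non-induced libraries. The whole library rose, as given above, and the share of all elements without such overlap is not given here. The fourth, tAtagata, had 8.32, 8.92 and 8.71% at 250 ng, against 1.45, 1.67 and 2.06% in non-induced libraries, where its spread was the widest of any member. Its 250 ng mean, 8.65%, was below those of tTtatata (9.11%), tTtacata (8.86%) and tCtatata (8.75%).

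The G2C members were low under induction. tCtagata, the least edited of the 12 at both amounts, had 7.62, 7.63 and 7.75% at 250 ng, against 1.77, 1.72 and 1.87% without induction. tCtaaata had 7.65, 8.02 and 8.21% at 250 ng, against 1.74, 1.96 and 1.90% in non-induced libraries. tCtacata had 7.83, 8.18 and 8.32% at 250 ng, against 1.62, 1.77 and 1.85% without induction. Set against the median of the other elements without TGT in each library, tCtacata was 0.318 ± 0.162 percentage points above it, tCtaaata 0.168 ± 0.193 above it and tCtagata -0.127 ± 0.0481 from it. The exception among them was tCtatata, with 8.40, 8.80 and 9.04% at 250 ng, against 1.57, 1.38 and 1.66% in non-induced libraries. It combined the highest level of the 4 G2C members under induction with the lowest level of all 12 members without it.

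The mean of the G2T members lay between those of G2A and G2C, while single members crossed those ranges. tTtatata had 8.69, 9.09 and 9.56% at 250 ng, against 1.66, 1.89 and 1.79% without induction. tTtacata had 8.83, 8.87 and 8.88% at 250 ng, against 1.47, 1.503 and 1.83% without induction. Its 250 ng libraries were the closest together of any member, with an SD of 0.0254%, and its non-induced level was the second lowest. tTtaaata had 8.20, 8.20 and 8.46% at 250 ng, against 1.86, 1.94 and 1.85% in non-induced libraries. The last, tTtagata, had 7.48, 7.64 and 8.13% at 250 ng, against 1.83, 1.64 and 1.55% without induction. Its 250 ng mean, 7.75%, was below those of 3 of the 4 G2C members.

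At 25 ng the members had a narrower range in percentage points, at a lower mean level (4.64% against 8.73% at 250 ng). In log2 odds the differences from the consensus, given below, did not span less at 25 ng. Their means ran from 4.04 ± 0.270% for tCtagata to 5.23 ± 0.246% for tAtacata, and the SD over the 12 means was 0.402 percentage points, against 0.834 at 250 ng. By new base the levels were 5.05 ± 0.132% for G2A, 4.39 ± 0.256% for G2C and 4.48 ± 0.110% for G2T. The highest value of a member in any 25 ng library was 5.61% and the lowest value of a consensus element was 5.92%, so the members and the consensus did not overlap at 25 ng. At 250 ng the corresponding values were 10.4% and 11.3%, again without overlap. This separation was not particular to the members, since nearly all elements lay below the consensus within a library. Even tgtagata, the least edited consensus element, was above at least 98.9% of elements in each 25 ng library. In each 250 ng library it was above at least 99.0% of them. Without induction the highest member value was 2.06% and the lowest consensus value 1.56%, and in ADARcdMUT libraries they were 2.53% and 1.37%, so in both of those groups the levels overlapped.

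The step from G to any other base was then measured inside each library. For each member the difference of log2 odds from the consensus element with the same base at position 5 was fitted together with all 4845 pairs of 8-base elements that differ at exactly 1 position. All 12 members were lower than their consensus element at 250 ng and all 12 at 25 ng, where 19.9% and 17% of all pairs were called in that direction. Pairs share elements and are not independent. In non-induced libraries and in ADARcdMUT libraries 0 of the 12 were called (limma), with 1 and 4 of them at an unadjusted p under 0.05. At that p were also 989 and 1253 of all 4845 pairs. Of all pairs, 2.5% were called higher and 2.56% lower in non-induced libraries, and 5.22% higher and 5.86% lower in ADARcdMUT libraries.

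The largest differences were those of G2C members. tCtaaata was below tgtaaata at 250 ng by a log2 odds difference of -0.82 (95% interval -0.97 to -0.67, limma adjusted p = 3.34e-06). For tCtacata against tgtacata the difference was -0.81 (-1.0006 to -0.63, limma adjusted p = 6.37e-06). At the other end were the G2A members, with -0.46 for tAtagata against tgtagata (-0.64 to -0.27, limma adjusted p = 0.00101) and -0.48 for tAtacata against tgtacata (-0.67 to -0.30, limma adjusted p = 0.00053). The 4 G2T differences ran from -0.76 to -0.63. At 25 ng the same differences ran from -0.87 for tCtacata to -0.41 for tAtagata.

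Whether that drop changed with the fusion was tested in the same fit. At 250 ng against non-induced libraries the difference from the consensus moved down for 11 of 12 members, where 15.1% of all pairs were called lower and 1.69% higher. The member that missed was tTtacata, with a change of -0.44 (95% interval -0.78 to -0.09, limma adjusted p = 0.0778). Against ADARcdMUT 11 of 12 were called at 250 ng and 11 of 12 at 25 ng, where 15.6% and 12.4% of all pairs were called lower, and 2.72% and 2.17% higher. At 25 ng against non-induced libraries 10 of 12 were called, with 12.1% of all pairs called lower and 0.929% higher, and tAtagata (limma adjusted p = 0.0551) and tCtatata (limma adjusted p = 0.0656) missed. Between 250 ng and 25 ng 0 of 12 were called (limma), and 0 had an unadjusted p under 0.05, beside 9 of all 4845 pairs. These counts rest partly on single libraries: against non-induced libraries the 250 ng count fell to 6 without 250 ng replicate 1, and the 25 ng count fell to 6 without 25 ng replicate 2. On the share of reads with at least 1 edit those counts were 7 at 250 ng and 6 at 25 ng.

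The 3 new bases were compared with each other at each base of position 5, which gives 12 pairs. At 250 ng 3 pairs were called, each with the G2A member higher, where 1.51% of all pairs were called higher and 19.9% lower. tAtacata exceeded tCtacata by 0.33 (95% interval 0.18 to 0.48, limma adjusted p = 0.00211). tAtaaata exceeded tCtaaata by 0.27 (0.13 to 0.42, limma adjusted p = 0.00794) and tTtaaata by 0.21 (0.06 to 0.36, limma adjusted p = 0.0472). Of the 4 pairs of a G2C and a G2T member, 0 were called (limma, 0 of them with an interval that excludes 0), and the differences ran from -0.14 to -0.02. The largest of these differences, tCtacata against tTtacata, had an interval of -0.29 to 0.01, so a difference of that size was not excluded. That pair was the 1 called on the arcsine scale, and 3 of the 4 were called in a fit of the 250 ng libraries alone, each with the G2T member higher. In those settings 9 and 11 of the 12 new-base pairs were called, and the share of all pairs called in them is not given here.

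In all 4 settings of position 5 the G2A member was above both partners in each of the 3 libraries at 250 ng. At 25 ng this held for A, C and G at position 5, and with T at position 5 it held in 2 of 3 libraries. It also held in all 3 ADARcdMUT libraries with A at position 5, and not with C, G or T. Among non-induced libraries it held in all 3 with none of the bases at position 5. The 25 ng library that broke the order was replicate 2, where tAtatata had 4.60% of recorder adenosines edited, against 5.33 and 5.31% in the other 2. At 25 ng 3 of the 12 pairs were called, where 1.42% of all pairs were called higher and 17% lower. The direction of a new-base pair follows the order of the alphabet, so both shares apply. Called were tAtaaata over tCtaaata by 0.27 (limma adjusted p = 0.0101), tAtacata over tCtacata by 0.31 (limma adjusted p = 0.00452) and tAtacata over tTtacata by 0.27 (limma adjusted p = 0.0162). Leaving out 250 ng replicate 3 took the count at 250 ng to 1. Leaving out 25 ng replicate 2 or 3 took the count at 25 ng to 0 or 1, and leaving out ADARcdMUT replicate 1 or 2 took it to 5.

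The same pairs were tested again in non-induced and in ADARcdMUT libraries. Among non-induced libraries 0 of the 12 pairs were called (limma). In ADARcdMUT libraries 1 of 12 was called, tAtaaata over tCtaaata by 0.29 (limma adjusted p = 0.015), where 5.22% of all pairs were called higher and 5.86% lower. The ADARcdMUT count was 0 without ADARcdMUT replicate 1 and 3 without replicate 2 or 3. The level of tAtaaata was 2.47, 1.995 and 2.10% in ADARcdMUT libraries, against 1.80, 1.81 and 1.99% in non-induced libraries. The change of a new-base difference between 250 ng or 25 ng and non-induced libraries was called for 0 of 12 pairs (limma), so a change of the order with induction was not shown by this fit. On the arcsine scale 5 of these changes were called at 250 ng and 3 at 25 ng, and in a fit of the compared groups alone 2 at 250 ng. That count at 250 ng was 1, 2 and 2 without ADARcdMUT replicate 1, 2 and 3.

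The members also varied with the base at position 5. Over the 3 members with each base, the level at 250 ng averaged 9.34 ± 0.363% with T, 8.99 ± 0.181% with C, 8.57 ± 0.332% with A and 8.02 ± 0.199% with G. G at position 5 was also the least edited setting of the consensus, where tgtagata had 11.5 ± 0.195%, against 13.2 ± 0.328% for tgtaaata, 13.4 ± 0.379% for tgtacata and 13.9 ± 0.360% for tgtatata. Among the 6 consensus pairs the 3 that hold tgtagata were called at 250 ng, with tgtagata lower each time. Among the 18 member pairs that differ at position 5 alone, 1 was called at 250 ng, where 1.51% of all pairs were called higher and 19.9% lower. The count was 10 on the arcsine scale and 14 in a fit of the 250 ng libraries alone. For those settings the share of all pairs is not given here.

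The position-5 pair called in the main fit at 250 ng was tCtagata below tCtatata, at -0.21 (95% interval -0.33 to -0.08, limma adjusted p = 0.0183), where 19.9% of all pairs were called lower. It was not called without any one of the 250 ng replicates 1, 2 and 3, and the count was 2 without non-induced replicate 1, ADARcdMUT replicate 1 or ADARcdMUT replicate 2. In non-induced libraries the same pair was called the other way, at 0.22 (limma adjusted p = 0.0392), where 2.5% of all pairs were called higher and 2.56% lower. It was 1 of 2 position-5 calls in those libraries, a count that was 0 on the arcsine scale and 0 in a fit of the non-induced libraries alone, and that ran from 0 to 3 with 1 library left out. The change between 250 ng and non-induced libraries was -0.43 (limma adjusted p = 0.00227). It was 1 of 3 of the 18 member pairs whose position-5 difference was called changed at 250 ng, a share like that of all pairs, of which 15.1% were called lower and 1.69% higher. The others were tCtaaata against tCtatata (-0.44, limma adjusted p = 0.00533) and tTtaaata against tTtacata (-0.35, limma adjusted p = 0.0424), and the count was 1 on the share of edited reads, 8 on the arcsine scale and 5 in a fit of the compared groups alone. Each of these 3 holds tCtatata or tTtacata, the 2 members with the lowest levels in non-induced libraries.

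Since induction moved the whole library, the members were also tested after each library was centred on its median log2 odds. At 250 ng against non-induced libraries 5 of 12 members moved up relative to the library median and 0 moved down, where 9.64% of all entries were called higher and 3.38% lower. The 5 were tCtatata (0.42, limma adjusted p = 0.00212), tAtatata (0.42, limma adjusted p = 0.00562), tTtacata (0.38, limma adjusted p = 0.0373), tAtacata (0.36, limma adjusted p = 0.00204) and tAtaaata (0.25, limma adjusted p = 0.0341). Of these, tCtatata and tTtacata had the lowest starting levels, as given above. The other 7 ranged from -0.02 for tCtaaata to 0.26 for tTtatata, and 1 of them, tTtatata, had an unadjusted p under 0.05. Counting the called members, 6 of 12 were at that p, beside 263 of all 1006 entries. Leaving out non-induced replicate 1 or 2, or any one of the 250 ng replicates, left 3 calls.

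At 25 ng against non-induced libraries 2 of 12 moved up, tCtatata (0.43, limma adjusted p = 0.00271) and tAtacata (0.27, limma adjusted p = 0.0249), where 7.06% of entries were called higher and 2.19% lower. The count fell to 1 without non-induced replicate 2 or 25 ng replicate 1 or 3. Against ADARcdMUT 3 of 12 moved up at 250 ng, where 10.3% of entries were called higher and 4.37% lower: tAtacata (0.52, limma adjusted p = 9.22e-05), tAtatata (0.47, limma adjusted p = 0.00223) and tCtacata (0.26, limma adjusted p = 0.0427). At 25 ng against ADARcdMUT only tAtacata of the 12 was called (0.42, limma adjusted p = 0.000848), where 7.55% of entries were called higher and 2.49% lower, and the count was 2 without non-induced replicate 2, 25 ng replicate 2 or any one ADARcdMUT replicate. These comparisons share libraries, so they are not independent. tAtacata was the member called in all 4 of them.

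Between 250 ng and 25 ng 0 of 12 members were called after centring (limma), with 0 of 12 at an unadjusted p under 0.05 and 4 of all 1006 entries. Between ADARcdMUT and non-induced libraries 0 of 12 were called (limma), with 3 of 12 and 134 of all 1006 entries at an unadjusted p under 0.05. The share of all entries called there was 0.199% higher and 0% lower. The member nearest to a call was tCtatata, at 0.25 (limma adjusted p = 0.215). It had 2.14, 1.85 and 1.84% of recorder adenosines edited in ADARcdMUT libraries, against 1.57, 1.38 and 1.66% in non-induced libraries, without overlap. The levels of tAtaaata did not overlap between these groups either. The share of all elements without such overlap is not given here.

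To place the members on a common scale, the level above the median of the elements without TGT was expressed in each library as a percent of the same excess of the consensus. At 250 ng the G2A members kept 34.1 ± 5.41% of the consensus excess, the G2T members 13.5 ± 2.53% and the G2C members 6.28 ± 2.62%. At 25 ng the shares were 28.1 ± 4.80% for G2A, 7.33 ± 4.31% for G2T and 3.42 ± 3.13% for G2C. Among single elements at 250 ng, tAtacata kept 39.3 ± 5.87% and tAtatata 39.1 ± 5.19%. The lowest were tCtagata at -3.51 ± 1.49% and tTtagata at -1.04 ± 7.07%, which were at or below the median of elements without TGT. These shares are descriptions without a test.

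Single substitutions at the other fixed positions, 12 elements each, give the setting for position 2. At 250 ng the median level of the 12 members was 8.66 ± 0.263%, that of position 1 was 8.31 ± 0.221% and that of position 3 was 8.14 ± 0.0620%, the other bases of TGT. Medians further along the element were 9.37 ± 0.162% for position 4, 9.55 ± 0.0765% for position 6, 9.14 ± 0.191% for position 7 and 10.3 ± 0.234% for position 8. The median difference from the consensus in log2 odds was -0.66 for position 2, -0.73 for position 1 and -0.80 for position 3, and between -0.53 and -0.42 for positions 4, 6, 7 and 8. All 12 single substitutions were below the consensus at positions 1, 3, 4, 6 and 7, and 11 of 12 at position 8. No test between positions was made.

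After centring, 5 of 12 members were called higher at 250 ng than in non-induced libraries, beside 3 of 12 at position 1 and 1 of 12 at position 3. The counts were 9 at positions 4 and 6, 8 at position 7 and 11 at position 8. Among the 640 other elements without TGT 17 were called higher and 22 lower.

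A second substitution was then added to each member, at any of the 6 other fixed positions. Each new base gives 72 such pairs of a doubly substituted element and its member, which share the 4 members and are not independent. At 250 ng the double was called lower in 46 of 72 pairs for G2A, in 4 of 72 for G2C and in 5 of 72 for G2T, where 19.9% of all pairs were called lower. The counts for G2C and G2T depended on the setting: on the arcsine scale they were 30 and 36, and in a fit of the 250 ng libraries alone 51 and 52, with 71 for G2A. The share of all pairs called in those settings is not given here. The median differences in log2 odds were -0.27 for G2A, -0.09 for G2C and -0.11 for G2T. At 25 ng the counts were 33 for G2A, 5 for G2C and 2 for G2T, where 17% of all pairs were called lower. In non-induced libraries the double was lower in 1, 1 and 2 pairs and higher in 1, 4 and 3 pairs, in the order G2A, G2C and G2T. In ADARcdMUT libraries it was lower in 3, 0 and 1 pairs and higher in 4, 7 and 2 pairs, in the same order. The shares of all pairs called lower and higher were 2.56% and 2.5% in non-induced libraries, and 5.86% and 5.22% in ADARcdMUT libraries.

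By the position of the second substitution the 250 ng counts ran from 7 of 36 at position 1 to 11 of 36 at position 7, where 19.9% of all pairs were called lower. The G2A count at 250 ng fell to 28, 22 and 23 without 250 ng replicate 1, 2 and 3, and the G2A count at 25 ng fell to 16, 16 and 21 without 25 ng replicate 1, 2 and 3. The G2C and G2T counts at 250 ng were 0 without any one 250 ng replicate, and at most 9 for G2C and 13 for G2T in the other refits that left out 1 library. The difference between the new bases in these counts was not tested.

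Editing can be split into how many reads carry an edit and how many edits such a read has. At 250 ng, 24.9 ± 0.818% of reads of the G2A members carried an edit, 22.6 ± 0.705% for G2C and 23.3 ± 0.537% for G2T, against 28.9 ± 0.265% for the consensus and 22.2 ± 0.435% for the other elements without TGT. Edited reads of the members held 2.69 ± 0.00987 edits for G2A, 2.51 ± 0.0077 for G2C and 2.55 ± 0.0176 for G2T, against 3.15 ± 0.0250 for the consensus. Both components followed the order of the levels. Without induction, edited reads held 1.81 ± 0.0548 edits in the members and 1.88 ± 0.0618 in the consensus.

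The number of reads is a second readout of each element. In every 1000000 reads of a library a member averaged 960.3 ± 66.7 reads at 250 ng, 856 ± 74.9 at 25 ng and 756 ± 63.3 in ADARcdMUT libraries, against 856 ± 33.3 in non-induced libraries. G2C members were the most frequent, with 1253 ± 57.7 reads on that scale at 250 ng and 1157 ± 31.8 without induction. The G2A members had 813 ± 68.5 reads at 250 ng and 714 ± 31.9 without induction, and the G2T members 814 ± 74.2 and 696 ± 37.4. In the edgeR test of reads 0 of 12 members were called in each of the 3 comparisons with non-induced libraries, where 0% of all entries were called.

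The members at an unadjusted p under 0.05 in reads (edgeR) were 6 at 250 ng, 0 at 25 ng and 3 in ADARcdMUT libraries. Of all 1006 entries, 430, 1 and 255 were at that p in the same comparisons, so the member counts were like those of the whole library. The members with the largest read changes at 250 ng were tTtatata (log2 fold change 0.48, edgeR adjusted p = 0.0823), tCtatata (0.37, edgeR adjusted p = 0.0766) and tAtatata (0.36, edgeR adjusted p = 0.0962), all with T at position 5. The consensus element with T at position 5, tgtatata, had 0.30 (edgeR adjusted p = 0.11). Their read level itself was low at 250 ng: in every 1000000 reads the members with T at position 5 averaged 839.6 ± 133 reads, against 989.4 ± 84.4 with C, 974.3 ± 36.8 with A and 1038 ± 12.7 with G. Members with T at position 5 thus had the largest read changes and the highest mean editing level, and the part of read number in the editing result was not tested. DESeq2 called 2 members at 250 ng and 1 member in ADARcdMUT libraries, and leaving out 25 ng replicate 1 or 2 took the edgeR count at 250 ng to 1 or 5. The share of all entries called in those refits is not given here.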

How the data were processed

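Amplicons of the recorder 3′ UTR were sequenced from 12 libraries (11235321 to 25127959 reads). Per the labels, groups and replicate numbers are those of the sample titles. The authors deposited, per element, 3 counts (reads, edited reads, edits) and the total reads. They also deposited percent values, of edited adenosines and of all reads, and an efficiency score, none of which was tested. No source used here names the aligner or caller. Only elements with over 1000 reads are listed, and 16 of 1022 were not in all 12 libraries.

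The value tested was log2((edits + 0.5)/(7 × reads − edits + 0.5)), with limma 3.58.1 (trend) in R 4.3.3 over all 12 libraries. It was tested as such, centred on each library's median, and as differences of 4845 pairs. Reads were tested with edgeR 4.0.16 (quasi-likelihood, TMM), and with DESeq2 1.42.0 as an alternative. Adjustment was by Benjamini-Hochberg over all entries or pairs, and a call needed an adjusted p under 0.05. Other settings tried were pseudocounts of 0.1 and 5, a minimum of 5000 reads, other centring, a quasi-binomial model, the arcsine scale, the share of edited reads, fits of the compared groups alone, a replicate block and each library left out. In simulated data at 250 ng against non-induced libraries, 98% of 0.25 changes were found after centring (1006 entries) and 86.9% in pairs between groups (4845 pairs). The simulated spread was a fixed multiple of the counting error, so these shares are not those of the real libraries. After centring, members had standard errors of 0.054 to 0.129, and changes of 0.26 (tTtatata) and 0.24 (tAtagata) were not called. All 12 members and 4 consensus elements are named. Members and lists were chosen with earlier results of these data known. No molecular identifiers are described, so the errors of read counts leave out PCR duplication. Replicates of a group differed in reads by a chi-squared of 6.24 to 202 per degree of freedom, and each was kept as a replicate of its own.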

Additional observations from a re-analysis of the deposited data

How the results depend on the processing

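Of 74 counts and levels tracked, 26 moved when some library was left out and 42 under some other setting, while 1519 of 1643 values of single elements and pairs kept direction and call. Unless a reason is given, the cause was not tested. The shares of all entries and pairs given above are those of the main setting, and none are given for the other settings. The drop from the consensus held for 12 of 12 members at 250 ng and at 25 ng under the other settings that refitted it. The exception was the share of edited reads (11 and 10). The drop was not refitted with the other centring, the quasi-binomial model or the replicate block. A minimum of 5000 reads left 9 of these pairs to test, and all 9 were called. Calls on tAtacata and tCtatata at 250 ng against non-induced libraries ended under no setting run. The calls on tAtaaata and tTtacata each ended under several, any left-out 250 ng replicate among them. Directions turned only for values that were not called. For tCtaaata at 250 ng against non-induced libraries the value was 0.049 on the share of edited reads, and it ran from -0.034 to 0.0017 with 1 library left out, the highest without 250 ng replicate 1. For tCtagata it ran from -0.081 to 0.027 in that comparison, turning without non-induced replicate 1 (0.018) or 3, and from -0.11 to 0.013 against ADARcdMUT, turning without ADARcdMUT replicate 1. For tCtagata against tTtagata within 250 ng it ran from -0.038 to 0.014, turning without 250 ng replicate 3.

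On the share of edited reads, another quantity than the level, the mean at 250 ng was 24.9% for G2A, 22.6% for G2C and 23.3% for G2T, and by position 5 it was 23.4% for A, 23.9% for C, 22.6% for G and 24.5% for T. At 25 ng these were 15.0489%, 13.8%, 14.2%, 14.6%, 14.2%, 13.8% and 14.8%. The centred counts became 3 (250 ng against non-induced) and 2 (25 ng against ADARcdMUT). Members moving down from the consensus became 7 at 250 ng and 6 at 25 ng, and position-5 changes at 250 ng 1. Within 250 ng, new-base pairs called became 1 and position-5 pairs 0. Within 25 ng they became 1 and 2. Position-5 pairs became 1 in non-induced and 1 in ADARcdMUT libraries, where new-base pairs became 0. Doubles below members became 23, 1 and 0 for G2A, G2C and G2T at 250 ng, and 14 for G2A at 25 ng.

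On the arcsine scale the centred counts were 4 at 25 ng against non-induced libraries, 2 at 250 ng against 25 ng, 9 at 250 ng and 3 at 25 ng against ADARcdMUT. Members moving down from the consensus between 25 ng and 250 ng became 1. New-base changes against non-induced libraries were 5 at 250 ng and 3 at 25 ng, and position-5 changes at 250 ng 8. Within 250 ng 9 new-base and 10 position-5 pairs were called, within 25 ng 5 and 5, and in non-induced libraries 0 position-5 pairs. Doubles below members were 30 for G2C and 36 for G2T at 250 ng, and 50, 14 and 11 for G2A, G2C and G2T at 25 ng.

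Fitting the compared groups alone, which leaves fewer libraries to estimate the spread, gave 2 new-base and 5 position-5 changes at 250 ng against non-induced libraries. Within 250 ng it gave 11 new-base and 14 position-5 pairs, and within 25 ng 6 and 6. It gave 0 position-5 pairs in non-induced libraries, and 0 new-base and 0 position-5 pairs in ADARcdMUT libraries. Doubles below members were 71, 51 and 52 at 250 ng, and 52, 15 and 11 at 25 ng, for G2A, G2C and G2T. The quasi-binomial model left centred counts of 2 at 250 ng and 1 at 25 ng against non-induced libraries. A minimum of 5000 reads gave 2 centred calls at 25 ng against ADARcdMUT, 1 member above the consensus and 2 new-base pairs in ADARcdMUT libraries, and 1 double below a G2T member at 25 ng. Centring on elements without TGT gave 2 calls at 25 ng against ADARcdMUT. DESeq2 called the reads of 2 members at 250 ng and 1 in ADARcdMUT libraries. The median in place of the mean gave 7.80% at 250 ng for G at position 5, and 4.38% for C and 4.81% for T at 25 ng, and the mean in place of the median gave 9.58% for position 7.

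With 1 library left out, centred counts against non-induced libraries ran from 3 to 6 at 250 ng and from 1 to 3 at 25 ng, and from 1 to 2 at 25 ng against ADARcdMUT. Members moving down from the consensus ran from 6 to 12 at 250 ng and at 25 ng. New-base changes ran from 0 to 2 at 250 ng and from 0 to 1 at 25 ng. New-base pairs ran from 1 to 4 within 250 ng, 0 to 5 within 25 ng, 0 to 1 in non-induced and 0 to 3 in ADARcdMUT libraries. Position-5 pairs ran from 0 to 2 within 250 ng, 1 to 2 within 25 ng, 0 to 3 in non-induced and 1 to 5 in ADARcdMUT libraries. Members below the consensus ran from 0 to 1 in non-induced and in ADARcdMUT libraries, where members above it ran from 0 to 3. Uncentred calls between ADARcdMUT and non-induced libraries ran from 0 to 1. Doubles below members ran from 22 to 52, 0 to 9 and 0 to 13 at 250 ng, and from 16 to 39, 0 to 11 and 0 to 8 at 25 ng, for G2A, G2C and G2T. Read calls at 250 ng ran from 0 to 5.

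In centred editing, libraries with the same replicate number did not deviate together (correlation -0.0946 to 0.0737 over 18 pairs of libraries, median -0.0195, against 0.0109 for different numbers). Shifts of a whole library are removed by centring, and reads were not checked in this way, so a pairing by number there was not tested. With the replicate number as a block, 4 members were called in reads at 250 ng, and tTtacata was no longer called after centring. Pair differences within a group were not refitted with the block. Among the tracked counts that were refitted, the block moved no other by over 1.5 times. Members with few reads, 3669 for tTtatata in ADARcdMUT replicate 1, have the widest counting errors.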
